A study of Mus musculus with 32 samples.

Results

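Interferon-stimulated genes are the genes that cells switch on when they sense an interferon, and their products block viruses at nearly every step of infection. A list of 46 gene symbols was followed here across mouse embryonic fibroblasts with 4 constructs. These differ in whether they hold ATP-citrate lyase (ACLY) and in where it is directed. Ddx58 and Tmem173 are older symbols of Rigi and Sting1, so the list names 44 genes. Of these, 36 had values among 12053 genes in 1 mM glucose and 32 among 12791 genes in 10 mM glucose. Both media gave values for 31 of them, and either medium for 37. Mx2, Oas1a, Oas2, Oasl2 and Cmpk2 were measured in 1 mM glucose alone and Gbp7 in 10 mM glucose alone. Bst2, Ddx60, Oasl1, Parp12, Rsad2, Trim25 and Zbp1 were not analysed here. The sources used here do not state what filter on low values the tables passed through, and a gene kept because of 1 construct in which it is high had to differ. The members measured in 1 medium alone are open to this, and the counts and rankings below include them. Every member count below is of the listed members.

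All cells were knockouts of the endogenous mouse Acly gene, whose enzyme makes acetyl-CoA from citrate in the cytosol and nucleus, and all carried the same vector. Nuc cells expressed mCherry-tagged human ACLY with added nuclear import sequences, Cyto cells the same fusion with a nuclear export sequence, WT cells the fusion without an added sequence, and KO cells the red fluorescent protein mCherry alone. WT is therefore an add-back of a human enzyme and not an unedited fibroblast. The cells spent 24 h in 1 mM or 10 mM glucose, in DMEM medium that held 10% calf serum. In 1 mM glucose each construct had 4 libraries. Nuc, WT and KO also had 4 in 10 mM glucose and Cyto had 3, because the Cyto library numbered 3, which the submitters set aside as an anomaly, was not analysed here. Nothing in the labels tells whether replicates are separate cultures or separately made lines, so the p-values measure the spread between these samples, which may be technical. Sequencing batch 1 held the 1 mM and batch 2 the 10 mM glucose libraries, so medium and batch cannot be told apart, and levels were compared only within a medium. Levels are the deposited log2 values, close to log2 CPM (read counts made relative to library totals). The depth of the libraries is unknown.

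Interferon alpha and beta bind a receptor of Ifnar1 and Ifnar2 chains, and the kinases Jak1 and Tyk2 then pass the signal on to STAT factors such as Stat2. With Irf9, Stat2 is part of the factor ISGF3, which binds the interferon-stimulated response element (ISRE), while interferon gamma acts through the gamma-activated site (GAS). The same genes can be switched on without interferon when DNA or RNA in the cytosol is sensed by cGAS or by Rigi and Ifih1, through Irf3 and Irf7.

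The promoters of 6 genes are shown as examples, and their motifs do not stand for those of all members that changed in the same direction. Ifit1, Isg15 and Gbp3 were higher in Cyto than in KO cells in 1 mM glucose, Stat2 encodes a part of ISGF3, and Irf1 and Ifit2 were lower in Cyto and Nuc than in KO cells in both media. Only Stat2 met the rule for promoters, and the other 5 were chosen after values were seen. The 250 bases before the annotated start are given 5′ to 3′ on the strand of the gene, from RefSeq on GRCm38.p6, which is an older build than the one of the tables. Capitals mark matches to the ISRE core GAAANNGAAA on either strand in Ifit1, Isg15, Gbp3 and Stat2, and to the GAS TTCNNNGAA in Irf1 and Ifit2. The windows lie at chr19:34640639-34640888, plus strand (Ifit1), chr4:156200819-156201068, minus strand (Isg15), chr3:142559794-142560043, plus strand (Gbp3), chr10:128270248-128270497, plus strand (Stat2), chr11:53769764-53770013, plus strand (Irf1) and chr19:34550444-34550693, plus strand (Ifit2).
Ifit1: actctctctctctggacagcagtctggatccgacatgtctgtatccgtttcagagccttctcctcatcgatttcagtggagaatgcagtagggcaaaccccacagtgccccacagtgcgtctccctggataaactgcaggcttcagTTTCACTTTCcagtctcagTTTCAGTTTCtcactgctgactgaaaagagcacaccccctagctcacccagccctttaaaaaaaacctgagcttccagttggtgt
Isg15: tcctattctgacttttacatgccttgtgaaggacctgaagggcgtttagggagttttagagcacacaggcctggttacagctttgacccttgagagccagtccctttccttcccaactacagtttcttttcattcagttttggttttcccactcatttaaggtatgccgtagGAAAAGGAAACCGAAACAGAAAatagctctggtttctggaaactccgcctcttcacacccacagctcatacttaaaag
Gbp3: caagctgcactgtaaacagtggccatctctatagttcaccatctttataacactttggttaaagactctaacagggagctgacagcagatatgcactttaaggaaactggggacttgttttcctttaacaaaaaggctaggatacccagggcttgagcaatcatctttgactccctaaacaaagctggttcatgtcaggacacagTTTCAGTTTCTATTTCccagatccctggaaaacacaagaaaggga
Stat2: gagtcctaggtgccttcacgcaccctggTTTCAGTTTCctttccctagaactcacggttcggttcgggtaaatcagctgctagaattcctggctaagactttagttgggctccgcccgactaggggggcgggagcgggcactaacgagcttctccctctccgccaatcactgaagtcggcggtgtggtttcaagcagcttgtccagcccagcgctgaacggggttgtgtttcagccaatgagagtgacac
Irf1: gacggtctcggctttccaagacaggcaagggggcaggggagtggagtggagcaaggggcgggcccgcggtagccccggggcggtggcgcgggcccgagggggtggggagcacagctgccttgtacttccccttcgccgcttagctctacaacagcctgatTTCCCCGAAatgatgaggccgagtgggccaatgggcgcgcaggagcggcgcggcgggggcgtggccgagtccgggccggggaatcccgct
Ifit2: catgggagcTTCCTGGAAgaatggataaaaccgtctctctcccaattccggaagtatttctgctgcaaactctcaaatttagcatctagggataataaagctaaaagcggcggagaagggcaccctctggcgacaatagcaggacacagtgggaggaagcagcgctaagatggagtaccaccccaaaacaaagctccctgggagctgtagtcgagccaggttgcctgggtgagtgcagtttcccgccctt

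Counted back from the start, the Ifit1 promoter held matches at -104 to -95 and -85 to -76, both on the opposite strand. The Isg15 promoter held 3 overlapping matches between -78 and -57, and the Gbp3 promoter 2 overlapping matches between -45 and -30 on the opposite strand. Stat2 had 1 ISRE match at -222 to -213, Irf1 had a GAS match at -90 to -82 and Ifit2 had one at -241 to -233. Unlike for the other genes shown, the bases just after the annotated start of Stat2 were not found in its transcripts. Its start, and positions counted from it, are therefore less certain. Irf1, Ifit2 and Gbp3 each have 2 promoter windows, and the one not shown held no match to the motif marked. Of the 37 measured members, 27 had a promoter window of 250 bases before and 50 after the start. An ISRE core lay in a window of 13 of them (48.1%), against 3.99% of 27025 genes with a window, and a GAS in 7 (25.9%), against 9.55%. Among members higher in Cyto than in KO cells in 1 mM glucose, 10 of 19 with a window held an ISRE core and 3 of 19 a GAS (Oas1a, Ifi35 and Adar). Among the members that were lower, the ISRE core was present in 1 of 6 (Ifih1) and the GAS in 2 of 6 (Irf1 and Ifit2). Dtx3l, Cmpk2 and Samd9l, also lower, held neither. A match is a run of letters and was not tested as a binding site.

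The mouse Acly entry, which also takes any reads of the human transgene that were assigned to it, checked the labels. It averaged 8.97 in Nuc, 10.5 in Cyto, 10.6 in WT and 5.35 in KO libraries in 1 mM glucose, and 9.12 in Nuc, 9.74 in Cyto, 10.2 in WT and 5.87 in KO libraries in 10 mM glucose. The KO means still lay above the median gene, which stood at 5.02 in 1 mM and 4.95 in 10 mM glucose. RNA of this entry was thus lower but not absent in KO. Nuc lay below Cyto and WT in both media, so the place of ACLY and the level of this entry cannot be told apart. All 10 fibroblast markers were measured, with summed linear levels of 33135 to 38307 in Nuc, 19353 to 22551 in Cyto, 41748 to 45183 in WT and 27130.5 to 31716 in KO libraries in 1 mM glucose. In 10 mM glucose the sums were 33669 to 36475 in Nuc, 24728 to 27028 in Cyto, 31752 to 32179 in WT and 18166 to 20256 in KO libraries. Cyto was thus the lowest group in 1 mM glucose and KO in 10 mM glucose. Of 10 markers of blood cells, Csf1r, Cd68 and Lyz2 were measured in 1 mM glucose, and Ptprc was not among the measured genes. Their summed linear level was 20.6 to 25.2 in Nuc, 10.2 to 13.9 in Cyto, 8.33 to 13.6 in WT and 19.1 to 23.4 in KO libraries, so Cyto and WT lay below Nuc and KO. Of the 10, 4 were measured in 10 mM glucose, with sums of 32.5 to 38.6 in Nuc, 20.9 to 24.2 in Cyto, 20.9 to 24.3 in WT and 19.3 to 28.5 in KO libraries. Tek was the 1 endothelial marker of 4 measured in 1 mM glucose, and no epithelial marker of 5 was among the measured genes in either medium. The part of these markers in the results was not tested. In 1 mM glucose WT library 2 held the highest WT level of 18 of 36 members, which was not particular to it. Nuc library 1 held the highest Nuc level of 21 members and KO library 2 the highest KO level of 18. WT library 2 stood apart there in its residual SD over all genes, at 0.401, against 0.201 to 0.247 in the other 15. In 10 mM glucose every library had a larger residual SD than those 15. It ran from 0.249 in WT library 1 to 0.398 in KO library 1, with 0.367 in Nuc library 4.

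In 1 mM glucose the members were mostly higher in Cyto cells than in cells with any other construct. Cyto had the highest mean of the 4 constructs for 25 of 36 members, Nuc for 2, WT for 1 and KO for 8. All Cyto libraries lay above all 12 other libraries for 22 members, while this held for 9.34% of all genes. WT had the lowest mean for 19 members and KO for 12. Against KO, 25 members were higher and 6 lower in Cyto (limma with Benjamini-Hochberg adjustment over all genes, adjusted p under 0.05), where 31.7% of all genes were called higher and 33% lower. Mx2, Oas1a, Oas2 and Oasl2 are among the 22 and the 25, and Cmpk2 is among the 6. These genes were measured in 1 mM glucose alone, so a filter may have kept them because of a construct in which they are high. The median log2 fold change of the members was 0.84, against -0.026 for all genes, and 16 of the called members were at least 2 times higher, against 6.46% of all genes. Groups did not overlap for 23 of the members with higher and 5 with lower levels, against 31.6% and 32% of all genes. In bulk RNA, fewer expressing cells and less RNA per cell cannot be told apart.

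**Figure D1:**
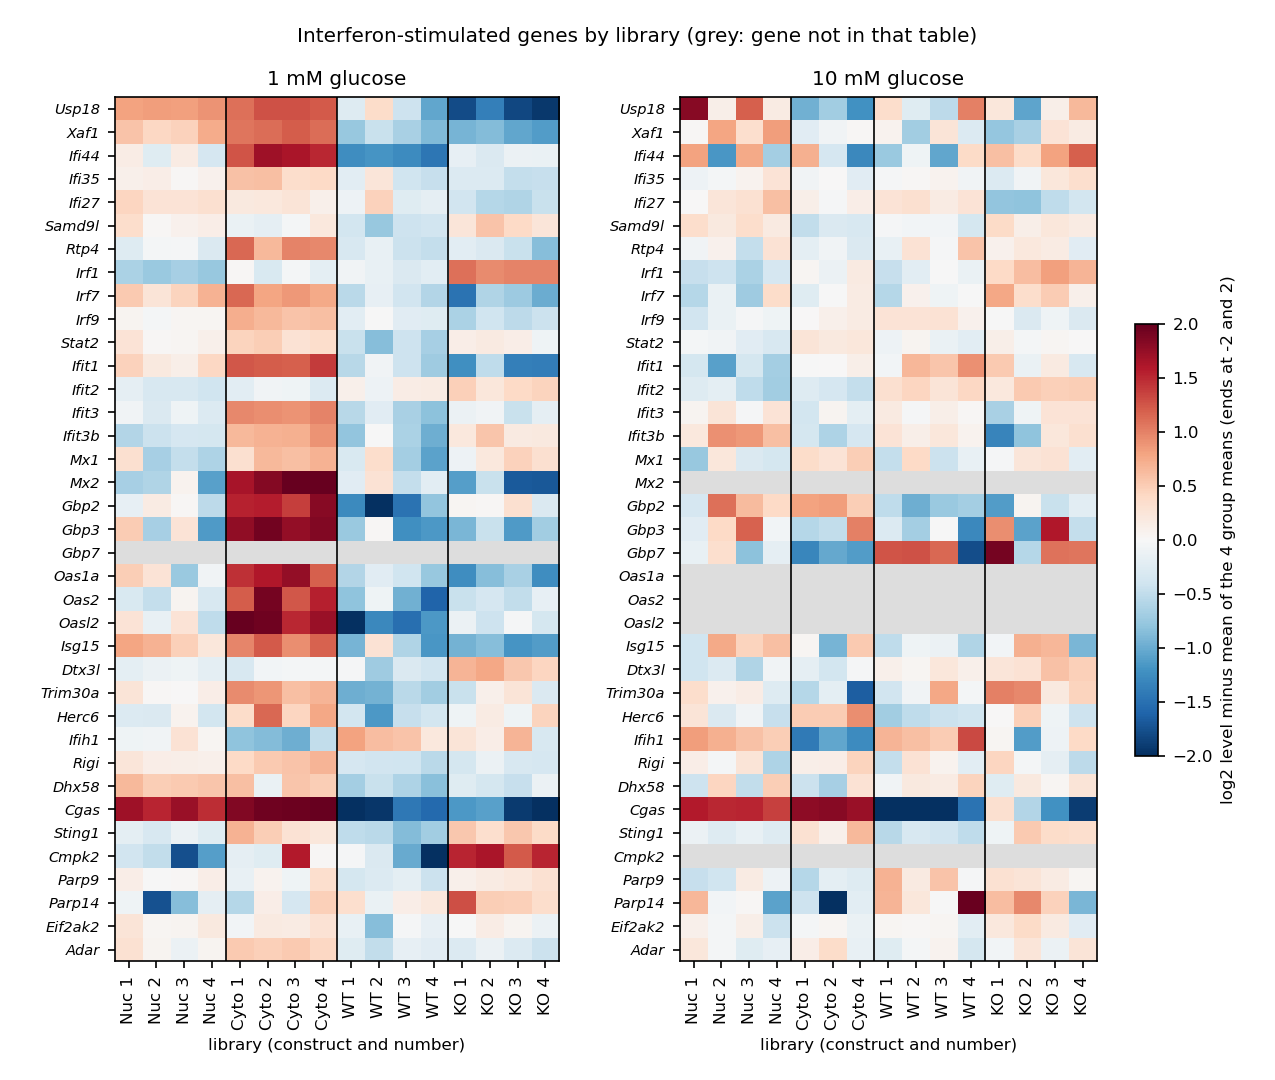
Level of each measured member in every library as the log2 difference from the mean of that member's 4 group means in its medium, with the constructs Nuc, Cyto, WT and KO from left to right. In 1 mM glucose Cyto had the highest mean for 25 of 36 members, and in 10 mM glucose no construct was highest for more than 9 of 32.

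The transcription factors that carry the interferon signal were higher in Cyto cells, apart from Irf1. Irf7, the factor that amplifies the response, had log2 levels of 3.14, 2.88, 3.06 and 3.31 in Nuc, 3.76, 3.40, 3.48 and 3.38 in Cyto, 2.07, 2.45, 2.24 and 2.03 in WT and 1.14, 2.02, 1.90 and 1.62 in KO libraries in 1 mM glucose. The groups did not overlap, in the order Cyto, Nuc, WT and KO from high to low. Irf7 was higher than in KO by 1.84 ± 0.17 (adjusted p = 7.86e-08) in Cyto and by 1.43 ± 0.17 (adjusted p = 2.03e-06) in Nuc, in log2 fold change with its standard error. The WT difference of 0.53 ± 0.17 (adjusted p = 0.0147) did not pass the threshold without KO 1 (adjusted p up to 0.0577). Nuc minus Cyto was -0.41 ± 0.17 (adjusted p = 0.0682), which did not pass the threshold.

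Irf9, the DNA-binding part of ISGF3, stood at 5.28, 5.19, 5.25 and 5.26 in Nuc, 5.94, 5.87, 5.79 and 5.82 in Cyto, 5.01, 5.21, 5.00 and 4.98 in WT and 4.59, 4.82, 4.69 and 4.78 in KO libraries. Cyto lay highest, Nuc and WT overlapped in 1 library, and KO lay below both. Its fold change against KO was 1.13 ± 0.07 (adjusted p = 4.63e-10) in Cyto, 0.52 ± 0.07 (adjusted p = 6.55e-06) in Nuc and 0.33 ± 0.07 (adjusted p = 0.000681) in WT. Stat2, its partner, had 5.99, 5.74, 5.76 and 5.82 in Nuc, 6.17, 6.21, 6.01 and 6.07 in Cyto, 5.28, 4.87, 5.30 and 5.05 in WT and 5.85, 5.91, 5.85 and 5.64 in KO libraries. WT was the low group here, at -0.69 ± 0.094 (adjusted p = 1.04e-05) against KO, and Cyto was higher by 0.30 ± 0.094 (adjusted p = 0.00995), a call that quantile normalization ended (adjusted p = 0.0709).

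Irf1, a factor induced through the GAS by interferon gamma and by inflammatory signals, ran the other way. It had 3.63, 3.51, 3.60 and 3.49 in Nuc, 4.27, 3.95, 4.21 and 4.05 in Cyto, 4.18, 4.11, 3.97 and 4.05 in WT and 5.35, 5.20, 5.24 and 5.24 in KO libraries. All constructs with ACLY lay below all KO libraries, by -1.70 ± 0.081 (adjusted p = 2.69e-11) in Nuc, -1.14 ± 0.081 (adjusted p = 2.78e-09) in Cyto and -1.18 ± 0.081 (adjusted p = 3.63e-09) in WT. Nuc was also below Cyto, by -0.57 ± 0.081 (adjusted p = 2.98e-05).

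Usp18, the protease that removes Isg15 from proteins and shuts off the interferon receptor, gave the clearest order of the constructs. Its levels were 3.77, 3.80, 3.78 and 3.85 in Nuc, 4.06, 4.24, 4.24 and 4.19 in Cyto, 2.71, 3.34, 2.55 and 1.93 in WT and 1.17, 1.59, 1.14 and 1.03 in KO libraries. No group overlapped another, from Cyto at the top through Nuc and WT to KO. Usp18 rose 7.73-fold over KO in Cyto (log2 fold change 2.95 ± 0.21 (adjusted p = 2.02e-09)), 5.94-fold in Nuc (2.57 ± 0.21 (adjusted p = 1.4e-08)) and 2.64-fold in WT (1.40 ± 0.21 (adjusted p = 2.12e-05)). The difference of Nuc from Cyto, -0.38 ± 0.21 (adjusted p = 0.153), did not pass the test although the libraries did not overlap.

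**Figure D2:**
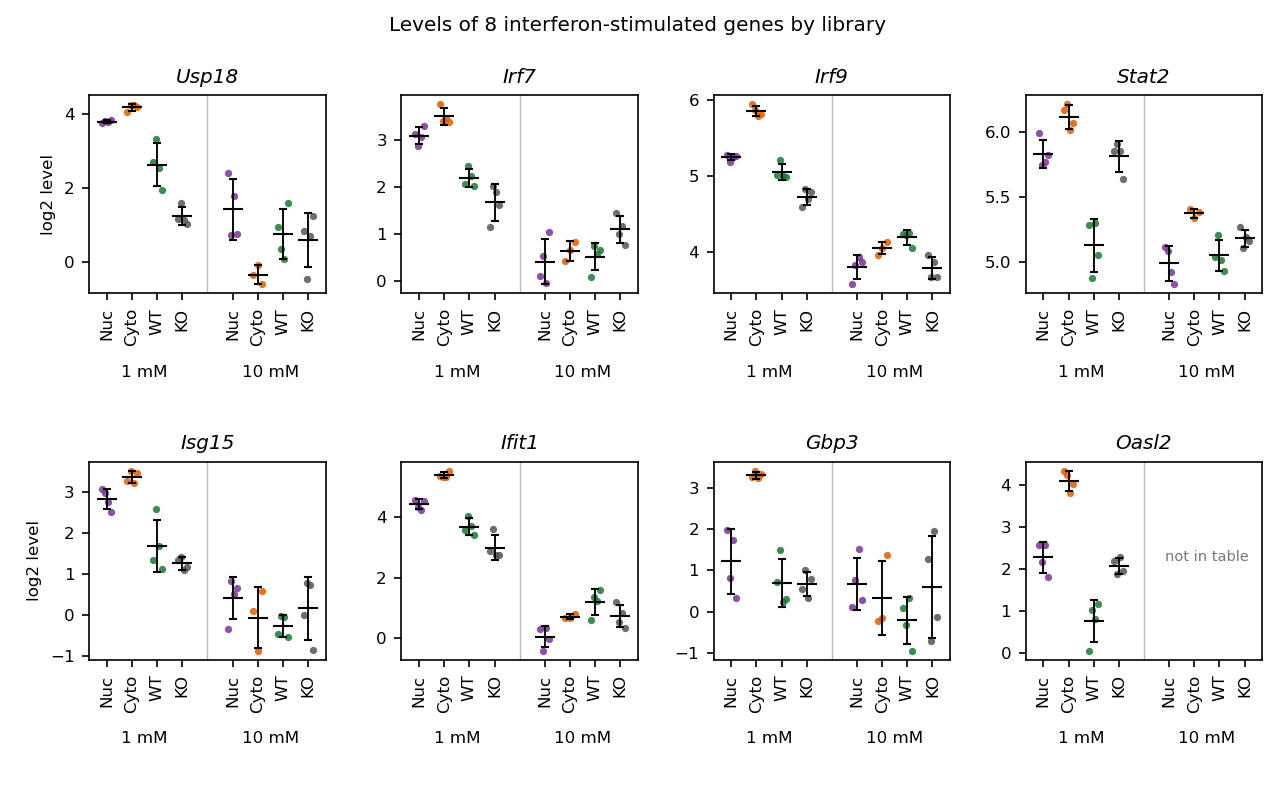
Log2 level of 8 members in each library, by construct (Nuc, Cyto, WT, KO) and medium, with horizontal bars at the group means and whiskers of 1 SD. In 1 mM glucose the Cyto libraries of Usp18 lie at 4.06 to 4.24 and the KO libraries at 1.03 to 1.59, while in 10 mM glucose Cyto lies at -0.62 to -0.10 and KO at -0.46 to 1.24.

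Isg15, the ubiquitin-like protein that is linked to newly made proteins, followed the same order with more overlap. It stood at 3.06, 2.97, 2.76 and 2.51 in Nuc, 3.26, 3.51, 3.20 and 3.46 in Cyto, 1.34, 2.57, 1.67 and 1.12 in WT and 1.34, 1.42, 1.11 and 1.16 in KO libraries. WT library 2 reached into the Nuc range, and the other WT libraries lay near KO. The fold change over KO was 2.10 ± 0.23 (adjusted p = 5.96e-07) in Cyto and 1.57 ± 0.23 (adjusted p = 2.09e-05) in Nuc, and that of WT was 0.42 ± 0.23 (adjusted p = 0.134). Of the ubiquitin-type ligases, Trim30a and Herc6 were called higher in Cyto than in KO, by 0.87 ± 0.14 (adjusted p = 3.9e-05) and 0.57 ± 0.21 (adjusted p = 0.0221). Herc6, the main Isg15 ligase of the mouse, lost that call without Cyto 2 or 4 or KO 1 or 3 (adjusted p up to 0.0918).

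The IFIT proteins bind viral RNA and keep it from being translated. Ifit1 had 4.56, 4.31, 4.22 and 4.53 in Nuc, 5.35, 5.32, 5.31 and 5.51 in Cyto, 3.55, 4.03, 3.70 and 3.40 in WT and 2.88, 3.60, 2.74 and 2.73 in KO libraries. Cyto lay above Nuc and Nuc above WT in every library, and WT overlapped KO through KO library 2. Ifit1 was 5.23-fold higher in Cyto than in KO (2.39 ± 0.17 (adjusted p = 2.54e-09)), with 1.42 ± 0.17 (adjusted p = 1.78e-06) in Nuc and 0.69 ± 0.17 (adjusted p = 0.0024) in WT. Ifit3, a partner of Ifit1, was higher than in KO by 1.15 ± 0.11 (adjusted p = 8.04e-08) in Cyto and lower by -0.35 ± 0.11 (adjusted p = 0.0106) in WT. Ifit3 shares 61.8% of its 31-base words with its neighbour Ifit3b, and Ifit3b 54.1% of its own with Ifit3, so the split of reads between them is uncertain.

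Ifit3b had 2.12, 2.27, 2.36 and 2.35 in Nuc, 3.34, 3.40, 3.41 and 3.59 in Cyto, 1.92, 2.69, 2.07 and 1.72 in WT and 2.91, 3.26, 2.89 and 2.89 in KO libraries. It was lower than KO in Nuc, by -0.71 ± 0.17 (adjusted p = 0.00143), and in WT, by -0.89 ± 0.17 (adjusted p = 0.00023). The Cyto difference of 0.45 ± 0.17 (adjusted p = 0.0258) was lost without Cyto 4 or KO 1, 3 or 4 (adjusted p up to 0.0717). Ifit2, another member of the family, did not follow Ifit1. It had 4.36, 4.22, 4.24 and 4.15 in Nuc, 4.34, 4.48, 4.47 and 4.28 in Cyto, 4.65, 4.46, 4.71 and 4.72 in WT and 5.03, 4.78, 4.95 and 5.00 in KO libraries. KO was above every other library, and Ifit2 was lower by -0.69 ± 0.084 (adjusted p = 1.95e-06) in Nuc, -0.55 ± 0.084 (adjusted p = 2.08e-05) in Cyto and -0.30 ± 0.084 (adjusted p = 0.00507) in WT.

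Among the large GTPases and the 2′-5′ oligoadenylate synthetases (OAS, which switch on RNase L when they meet double-stranded RNA), the higher levels lay mainly in Cyto. Mx2, Oas1a, Oas2 and Oasl2 were measured in 1 mM glucose alone. A filter may have kept them because of a construct in which they are high. Mx2, a GTPase that traps viral particles, had 0.65, 0.71, 1.37 and 0.22 in Nuc, 2.96, 3.14, 3.66 and 3.31 in Cyto, 1.08, 1.60, 0.83 and 1.09 in WT and 0.20, 0.86, -0.37 and -0.38 in KO libraries. The Cyto libraries were above all others, and Mx2 was 9.12-fold higher in Cyto than in KO (3.19 ± 0.29 (adjusted p = 5.26e-08)). Its fold change was 0.66 ± 0.29 (adjusted p = 0.0595) in Nuc and 1.07 ± 0.29 (adjusted p = 0.0046) in WT. Mx1, its neighbour in the genome, stood at 1.14, 0.15, 0.34 and 0.20 in Nuc, 1.14, 1.47, 1.42 and 1.52 in Cyto, 0.52, 1.17, 0.15 and -0.25 in WT and 0.73, 1.03, 1.28 and 1.14 in KO libraries. Its groups overlapped except Cyto and Nuc, and the differences from KO were -0.59 ± 0.28 (adjusted p = 0.0816) in Nuc, 0.34 ± 0.28 (adjusted p = 0.299) in Cyto and -0.65 ± 0.28 (adjusted p = 0.0577) in WT, none past the threshold.

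Gbp3, of the guanylate-binding proteins that attack the vacuoles of intracellular microbes, had 1.98, 0.81, 1.74 and 0.33 in Nuc, 3.25, 3.41, 3.23 and 3.32 in Cyto, 0.73, 1.49, 0.24 and 0.32 in WT and 0.56, 1.02, 0.34 and 0.78 in KO libraries. The Cyto libraries lay close together and above the rest, at 2.63 ± 0.33 (adjusted p = 2.07e-06) over KO, while Nuc spread widely and differed from KO by 0.54 ± 0.33 (adjusted p = 0.161). Gbp2, of the same family, had 0.75, 1.08, 0.94 and 0.40 in Nuc, 2.46, 2.48, 2.31 and 2.74 in Cyto, -0.35, -1.45, -0.56 and 0.14 in WT and 0.97, 0.95, 1.24 and 0.63 in KO libraries. It was higher than KO in Cyto by 1.55 ± 0.27 (adjusted p = 9.68e-05) and lower in WT by -1.50 ± 0.27 (adjusted p = 0.000182), so Cyto and WT were 3.05 ± 0.27 (adjusted p = 9.49e-08) apart.

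Oasl2, an OAS-like protein, had 2.58, 2.16, 2.57 and 1.80 in Nuc, 4.34, 4.24, 3.80 and 4.03 in Cyto, 0.045, 1.02, 0.80 and 1.16 in WT and 2.19, 1.88, 2.29 and 1.95 in KO libraries. Cyto lay above Nuc and KO, and WT below every library of the other constructs. The fold change against KO was 2.03 ± 0.23 (adjusted p = 6.57e-07) in Cyto, 0.20 ± 0.23 (adjusted p = 0.467) in Nuc and -1.32 ± 0.23 (adjusted p = 0.000105) in WT. Oas2 was higher in Cyto by 1.84 ± 0.27 (adjusted p = 1.51e-05) and Oas1a by 2.50 ± 0.29 (adjusted p = 8.68e-07). Oas1a shares 68.7% of its 31-base words with Oas1g, so its value is uncertain.

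The sensors of foreign nucleic acid split. Cgas, the enzyme that turns cytosolic DNA into the messenger cGAMP, had 1.13, 0.95, 1.16 and 0.90 in Nuc, 1.28, 1.36, 1.39 and 1.45 in Cyto, -3.59, -2.52, -2.0 and -2.13 in WT and -1.72, -1.66, -2.49 and -2.68 in KO libraries. All Nuc and Cyto libraries lay above all WT and KO libraries, with WT library 1 at the lowest value that the table holds. Cgas was higher than in KO by 3.51 ± 0.35 (adjusted p = 1.71e-07) in Cyto and 3.18 ± 0.35 (adjusted p = 7.43e-07) in Nuc, and at such low levels the size of the fold change depends on the offset of the table. WT minus KO was -0.42 ± 0.35 (adjusted p = 0.314). Sting1, the receptor of cGAMP, had 4.18, 4.06, 4.27 and 4.14 in Nuc, 5.08, 4.87, 4.66 and 4.60 in Cyto, 3.87, 3.85, 3.51 and 3.68 in WT and 4.92, 4.71, 4.91 and 4.77 in KO libraries. Cyto and KO overlapped, and Sting1 was lower than KO by -0.67 ± 0.11 (adjusted p = 4.56e-05) in Nuc and -1.10 ± 0.11 (adjusted p = 2.1e-07) in WT.

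Of the RNA sensors, Rigi was higher in Cyto by 0.82 ± 0.075 (adjusted p = 5.73e-08) and in Nuc by 0.43 ± 0.075 (adjusted p = 0.000104), and Dhx58, a regulator of the other sensors, by 0.67 ± 0.16 (adjusted p = 0.00123) and 0.85 ± 0.16 (adjusted p = 0.000176). Ifih1, the sensor of long double-stranded RNA, had 1.49, 1.5, 1.86 and 1.62 in Nuc, 0.77, 0.70, 0.60 and 1.08 in Cyto, 2.37, 2.18, 2.14 and 1.78 in WT and 1.83, 1.71, 2.25 and 1.24 in KO libraries. Its Cyto libraries were the lowest group, -0.97 ± 0.20 (adjusted p = 0.000422) against KO, and Ifih1 was the only member called higher in Nuc than in Cyto, by 0.83 ± 0.20 (adjusted p = 0.00303).

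The remaining effectors held both patterns. Xaf1, Ifi44, Rtp4 and Ifi35 were higher in Cyto than in KO by 2.12, 1.70, 1.39 and 0.86, and Ifi27, a small membrane protein, was higher in each construct with ACLY, by 0.82 ± 0.11 (adjusted p = 9.85e-06) in Nuc, 0.69 ± 0.11 (adjusted p = 5.16e-05) in Cyto and 0.49 ± 0.11 (adjusted p = 0.00158) in WT. Ifi27 had 7.24, 7.08, 7.08 and 7.14 in Nuc, 7.0, 7.02, 7.08 and 6.91 in Cyto, 6.72, 7.28, 6.58 and 6.63 in WT and 6.43, 6.25, 6.21 and 6.36 in KO libraries, and every KO library lay below all others. Ifi44 differed from KO by 1.70 in Cyto and by -1.11 ± 0.12 (adjusted p = 6.75e-07) in WT, with 0.11 ± 0.12 (adjusted p = 0.451) in Nuc. Adar, which edits adenosines in double-stranded RNA, was higher in Cyto by 0.76 ± 0.091 (adjusted p = 1.45e-06). Eif2ak2, the kinase that halts translation on such RNA, had 6.57, 6.34, 6.37 and 6.51 in Nuc, 6.25, 6.49, 6.47 and 6.60 in Cyto, 6.16, 5.46, 6.29 and 6.14 in WT and 6.31, 6.46, 6.36 and 6.19 in KO libraries, and its 4 groups overlapped except Nuc and WT. Mx1, Sting1, Parp9, Parp14 and Eif2ak2 were the 5 members not called between Cyto and KO.

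Cmpk2, a mitochondrial nucleotide kinase, had -0.68, -0.79, -2.06 and -1.40 in Nuc, -0.49, -0.54, 1.28 and -0.28 in Cyto, -0.33, -0.59, -1.31 and -2.32 in WT and 1.23, 1.34, 0.92 and 1.22 in KO libraries. KO lay above all Nuc and WT libraries, with -2.41 ± 0.47 (adjusted p = 0.000298) in Nuc and -2.32 ± 0.47 (adjusted p = 0.000479) in WT. Cyto library 3 sat far above the other Cyto libraries, and the Cyto difference of -1.18 ± 0.47 (adjusted p = 0.0357) was lost without Cyto 1, 2 or 4 or KO 1, 2 or 4 (adjusted p up to 0.0994). Dtx3l, a ubiquitin ligase that works with Parp9, had 3.39, 3.47, 3.5 and 3.38 in Nuc, 3.27, 3.53, 3.55 and 3.54 in Cyto, 3.56, 2.87, 3.3 and 3.21 in WT and 4.26, 4.36, 4.11 and 4.01 in KO libraries. All constructs with ACLY lay below KO, by -0.75 ± 0.13 (adjusted p = 6.87e-05) in Nuc, -0.71 ± 0.13 (adjusted p = 9.1e-05) in Cyto and -0.95 ± 0.13 (adjusted p = 6.54e-06) in WT.

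Parp9 itself had 4.02, 3.87, 3.91 and 4.02 in Nuc, 3.73, 3.95, 3.80 and 4.22 in Cyto, 3.53, 3.61, 3.68 and 3.46 in WT and 3.99, 4.04, 4.10 and 4.19 in KO libraries, with WT below all KO libraries at -0.51 ± 0.10 (adjusted p = 0.000375). Parp14, another ADP-ribosyl transferase, had -0.12, -1.77, -0.88 and -0.21 in Nuc, -0.60, 0.098, -0.37 and 0.44 in Cyto, 0.30, -0.16, 0.11 and 0.19 in WT and 1.26, 0.47, 0.45 and 0.31 in KO libraries. It was called lower in Nuc alone, by -1.37 ± 0.36 (adjusted p = 0.00328). Samd9l, which restricts poxviruses, had 5.60, 5.28, 5.33 and 5.38 in Nuc, 5.11, 5.07, 5.20 and 5.46 in Cyto, 4.89, 4.49, 4.83 and 4.86 in WT and 5.49, 5.83, 5.65 and 5.49 in KO libraries. KO and Nuc overlapped, and Samd9l was lower than KO by -0.41 ± 0.11 (adjusted p = 0.00415) in Cyto and -0.85 ± 0.11 (adjusted p = 6.15e-06) in WT.

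**Figure D3:**
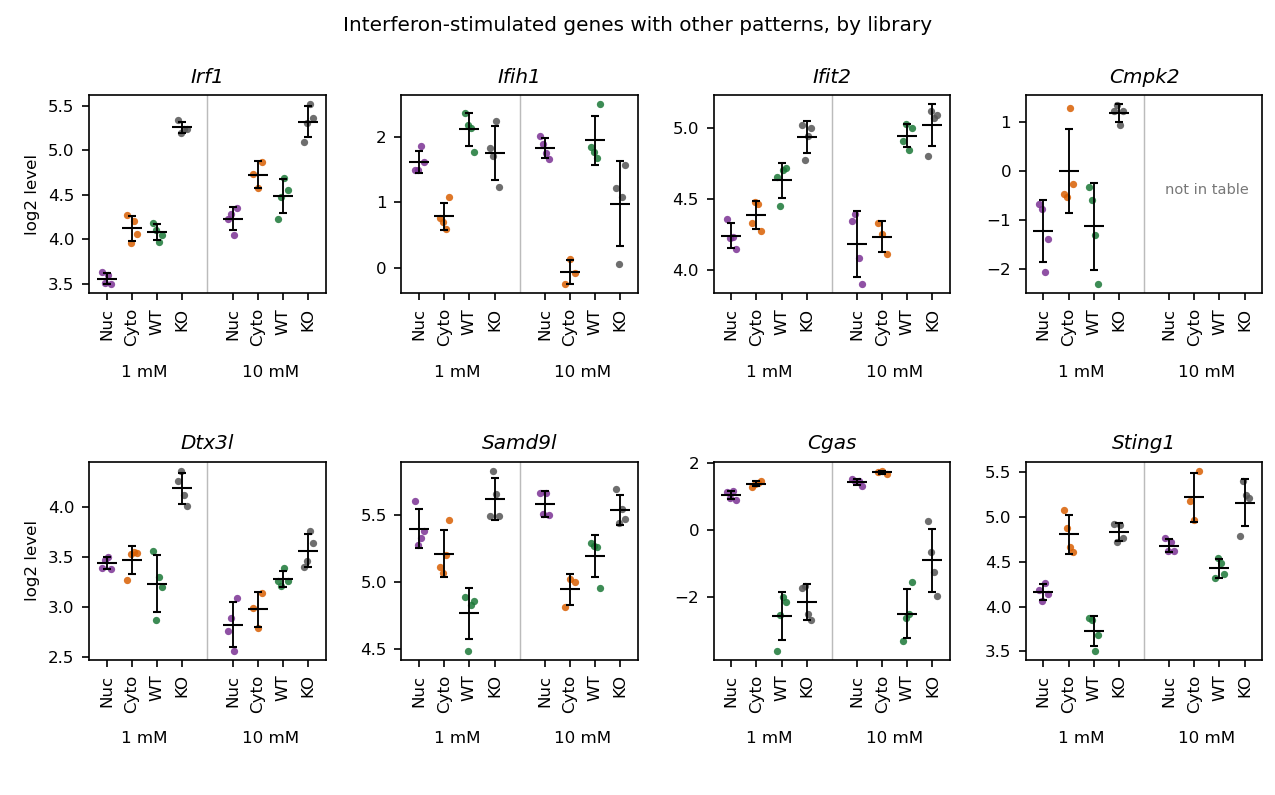
Log2 level in each library of 8 members that did not follow the order of Usp18, by construct (Nuc, Cyto, WT, KO) and medium, with bars at the group means and whiskers of 1 SD. Irf1 lies highest in KO in both media, and all Nuc and Cyto libraries of Cgas lie above all WT and KO libraries in both media.

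Fewer members were called between Nuc and KO. Nuc had 13 members higher and 7 lower than KO in 1 mM glucose (30.5% and 29.5% of all genes), with a median of 0.16, and groups that did not overlap for 11 and 7 members, against 31% and 30% of all genes. Set against Cyto directly, Nuc had 23 members lower and 1 higher (20.5% and 20.4% of all genes), with a median of -0.59. The largest of these were Mx2 at -2.53 ± 0.29 (adjusted p = 2.67e-06), Gbp3 at -2.08 ± 0.33 (adjusted p = 6.9e-05) and Oasl2 at -1.83 ± 0.23 (adjusted p = 6.62e-06). Mx2 and Oasl2, measured in 1 mM glucose alone, are open to the filter named above. Usp18, Irf7, Isg15 and Cgas were among the 12 members that were not called between Nuc and Cyto, Isg15 at -0.53 ± 0.23 (adjusted p = 0.0794) and Cgas at -0.33 ± 0.35 (adjusted p = 0.48).

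The lowest levels of many members lay in WT, where ACLY carries no added sequence. WT had 7 members higher and 15 lower than KO (29.7% and 28.5% of all genes), with a median of -0.35. Quantile normalization gave 11 higher and 15 lower, and leaving out WT library 2 gave 6 and 18. The higher ones were led by Usp18, Mx2 and Ifit1, and the lower ones by Cmpk2, Gbp2 and Oasl2. Of these, Mx2, Cmpk2 and Oasl2 were measured in 1 mM glucose alone. Against WT, Cyto had 29 members higher and 2 lower (25.7% and 27.5% of all genes), with a median of 1.20. The largest were Cgas at 3.93 ± 0.35 (adjusted p = 9.23e-08), Oasl2 at 3.35 ± 0.23 (adjusted p = 3.02e-09) and Gbp2 as above, and the lower ones were Ifih1 at -1.33 ± 0.20 (adjusted p = 3.07e-05) and Ifit2 at -0.25 ± 0.084 (adjusted p = 0.0205). The Ifit2 call was lost without Cyto 4 or WT 3 or 4 (adjusted p up to 0.0672), which left 1 member lower. Nuc had 21 members higher and 2 lower than WT (19.7% and 19.4% of all genes), with a median of 0.44. Cgas at 3.60 ± 0.35 (adjusted p = 5.9e-07), Oasl2 at 1.52 ± 0.23 (adjusted p = 5.82e-05) and Gbp2 at 1.35 ± 0.27 (adjusted p = 0.000929) led, and Irf1 at -0.52 ± 0.081 (adjusted p = 8.83e-05) and Ifit2 at -0.39 ± 0.084 (adjusted p = 0.00146) were lower. With quantile normalization 4 members were lower. Comparisons that name the same construct share its libraries and are not independent of each other.

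**Figure D4:**
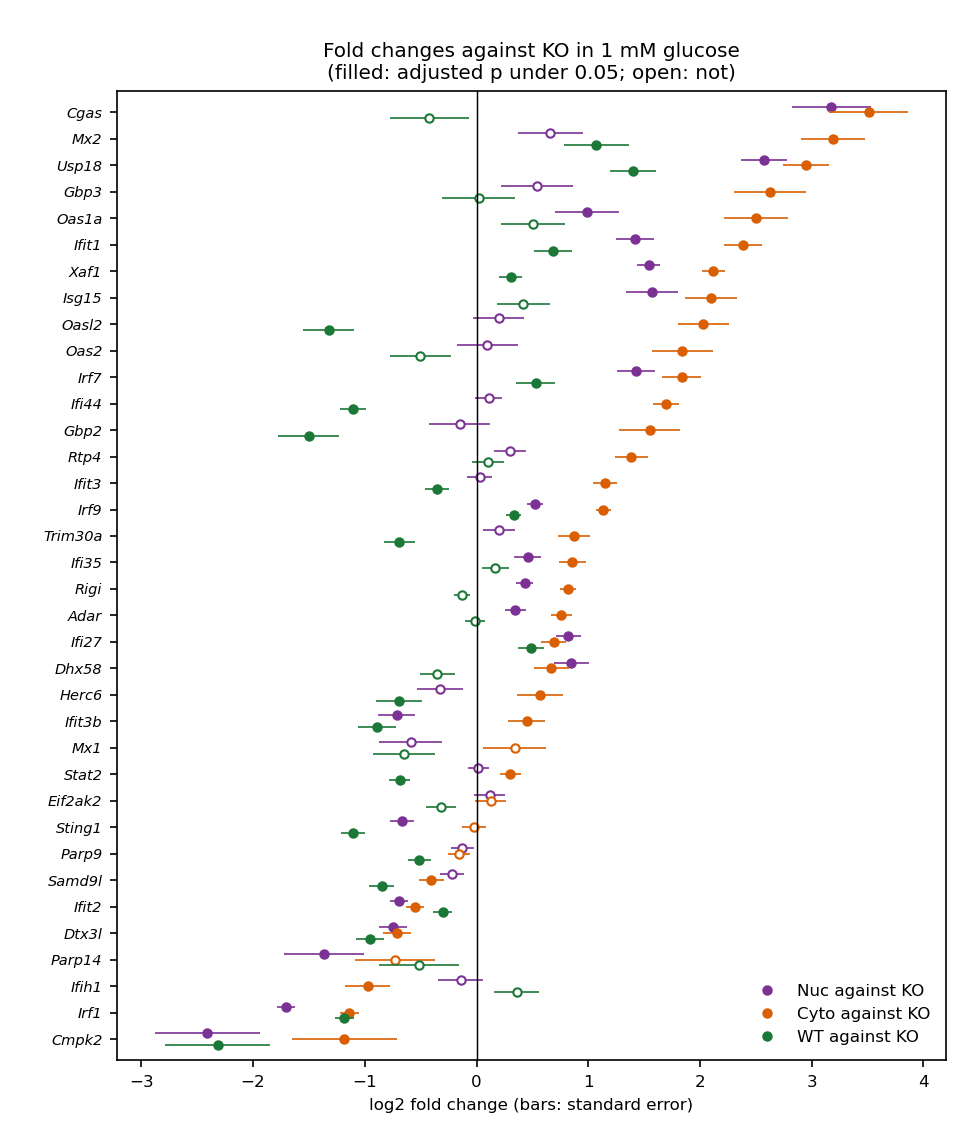
Log2 fold change against KO of each measured member in 1 mM glucose for Nuc, Cyto and WT, with standard errors from limma, ordered by the Cyto value; filled points passed the test and open points did not. Values in Cyto run from -1.18 for Cmpk2 to 3.51 for Cgas.

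In 10 mM glucose the list did not move together. Residual SDs over all genes were 0.249 to 0.398 there, mostly above those in 1 mM glucose. Nuc and Cyto had the highest mean for 8 members each, WT for 7 and KO for 9 of 32. Against KO, 4 members were higher and 8 lower in Cyto (19.6% and 18.9% of all genes), 6 higher and 4 lower in Nuc (22.7% of all genes in each direction), and 3 higher and 5 lower in WT (20.6% and 20.2%). The 8 lower in Cyto were the 1 count among these 6 that made a larger share of the list than of all genes. The Nuc count of 6 became 3 without Nuc library 2, and quantile normalization gave 3 higher and 3 lower in WT. Against Cyto, Nuc had 5 members higher and 4 lower (15.3% and 15.7% of all genes). Those 5 became 3 without Cyto library 1 or 4 or Nuc library 2 or 3, the 4 became 2 without Cyto library 4, and quantile normalization gave 3 and 5. Cyto had 5 higher and 4 lower than WT (15.9% and 15.6% of all genes), with 2 lower without Cyto library 1. Nuc had 3 higher and 5 lower than WT (15% and 13.8% of all genes), the lower ones 3 without WT library 3 and 2 without Nuc library 1.

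Usp18, Irf7, Isg15 and Ifit1 were not called between Cyto and KO in 10 mM glucose. Usp18 had 2.42, 0.72, 1.78 and 0.76 in Nuc, -0.37, -0.10 and -0.62 in Cyto, 0.95, 0.35, 0.067 and 1.60 in WT and 0.83, -0.46, 0.70 and 1.24 in KO libraries. The groups overlapped except that Cyto lay below Nuc and WT, and the difference from KO was -0.94 ± 0.49 (adjusted p = 0.145) in Cyto and 0.84 ± 0.45 (adjusted p = 0.145) in Nuc. Nuc was above Cyto, by 1.78 ± 0.49 (adjusted p = 0.0107). Irf7 had 0.099, 0.53, -0.043 and 1.03 in Nuc, 0.42, 0.66 and 0.83 in Cyto, 0.089, 0.74, 0.57 and 0.65 in WT and 1.44, 1.01, 1.17 and 0.76 in KO libraries, with -0.46 ± 0.31 (adjusted p = 0.274) in Cyto and -0.69 ± 0.29 (adjusted p = 0.0643) in Nuc against KO. The KO libraries were the highest group of Irf7, with some overlap. Isg15 had -0.34, 0.82, 0.51 and 0.66 in Nuc, 0.11, -0.87 and 0.58 in Cyto, -0.45, -0.024, -0.048 and -0.54 in WT and 0.013, 0.78, 0.72 and -0.85 in KO libraries. These groups overlapped throughout, and Cyto differed from KO by -0.23 ± 0.46 (adjusted p = 0.734).

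Ifit1 had 0.32, -0.41, 0.33 and -0.0019 in Nuc, 0.66, 0.68 and 0.80 in Cyto, 0.62, 1.35, 1.23 and 1.60 in WT and 1.20, 0.55, 0.85 and 0.36 in KO libraries. Nuc was the lowest group, -0.68 ± 0.29 (adjusted p = 0.0677) against KO and -1.14 ± 0.29 (adjusted p = 0.00745) against WT, and Cyto minus KO was -0.024 ± 0.31 (adjusted p = 0.959). Irf9 had 3.57, 3.82, 3.93 and 3.86 in Nuc, 3.96, 4.05 and 4.13 in Cyto, 4.24, 4.22, 4.25 and 4.05 in WT and 3.95, 3.67, 3.86 and 3.67 in KO libraries. WT lay above KO by 0.40 ± 0.11 (adjusted p = 0.00823) and Cyto by 0.26 ± 0.12 (adjusted p = 0.0982), where the libraries did not overlap and the test was not passed. Stat2 had 5.12, 5.09, 4.93 and 4.83 in Nuc, 5.41, 5.34 and 5.38 in Cyto, 5.04, 5.21, 5.02 and 4.93 in WT and 5.27, 5.11, 5.19 and 5.16 in KO libraries. Cyto was its highest group, with a difference from KO of 0.19 ± 0.092 (adjusted p = 0.108) that did not pass the test, and Nuc was lower than Cyto by -0.39 ± 0.092 (adjusted p = 0.00414). Mx1 had 0.55, 1.52, 1.01 and 0.95 in Nuc, 1.67, 1.57 and 1.79 in Cyto, 0.83, 1.70, 0.87 and 1.16 in WT and 1.28, 1.55, 1.59 and 1.10 in KO libraries, with 0.30 ± 0.28 (adjusted p = 0.431) in Cyto, and its groups overlapped except Cyto and Nuc.

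Some members were called in the same direction against KO in both media, which does not show that the sizes were equal. Of the next 8 members, Irf1 (in Nuc and Cyto), Ifih1 (in Nuc), and Dtx3l and Samd9l (in WT) had fold changes against KO that differed between the media by limma's contrast. Cgas had 1.53, 1.45, 1.46 and 1.30 in Nuc, 1.72, 1.76 and 1.67 in Cyto, -3.29, -2.63, -2.49 and -1.54 in WT and 0.26, -0.64, -1.26 and -1.95 in KO libraries. All Nuc and Cyto libraries again lay above all WT and KO libraries, and Cgas was higher than KO by 2.62 ± 0.49 (adjusted p = 0.000485) in Cyto and 2.34 ± 0.45 (adjusted p = 0.000505) in Nuc. WT library 1 was again at the lowest value of its medium. The WT difference of -1.59 ± 0.45 (adjusted p = 0.0105) was lost with quantile normalization or with 1 added on the linear scale (adjusted p up to 0.0601). Irf1 had 4.23, 4.28, 4.05 and 4.35 in Nuc, 4.73, 4.58 and 4.87 in Cyto, 4.23, 4.48, 4.69 and 4.56 in WT and 5.09, 5.31, 5.52 and 5.37 in KO libraries. KO was again above all others, and Irf1 was lower by -1.09 ± 0.12 (adjusted p = 1.28e-06) in Nuc, -0.59 ± 0.13 (adjusted p = 0.00144) in Cyto and -0.83 ± 0.12 (adjusted p = 3.2e-05) in WT.

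Ifit2 had 4.35, 4.40, 4.09 and 3.90 in Nuc, 4.33, 4.25 and 4.12 in Cyto, 4.91, 5.03, 4.85 and 5.01 in WT and 4.80, 5.12, 5.07 and 5.09 in KO libraries. WT overlapped KO, while Nuc and Cyto lay below both, at -0.84 ± 0.12 (adjusted p = 1.73e-05) and -0.79 ± 0.12 (adjusted p = 0.000102) against KO. Ifi27 had 6.26, 6.48, 6.56 and 6.85 in Nuc, 6.36, 6.22 and 6.38 in Cyto, 6.52, 6.56, 6.41 and 6.52 in WT and 5.45, 5.44, 5.74 and 5.88 in KO libraries, and KO was the lowest group, by 0.91 ± 0.11 (adjusted p = 6.99e-06) for Nuc, 0.69 ± 0.12 (adjusted p = 0.00032) for Cyto and 0.87 ± 0.11 (adjusted p = 1.55e-05) for WT. Dtx3l had 2.76, 2.89, 2.57 and 3.09 in Nuc, 2.99, 2.80 and 3.15 in Cyto, 3.27, 3.21, 3.39 and 3.26 in WT and 3.40, 3.46, 3.75 and 3.64 in KO libraries, lower than KO in Nuc by -0.74 ± 0.14 (adjusted p = 0.000414) and in Cyto by -0.59 ± 0.15 (adjusted p = 0.00564). Its WT difference from KO, -0.28 ± 0.14 (adjusted p = 0.123), did not pass the test, and the media difference for WT was -0.67 ± 0.18 (adjusted p = 0.00625). Sting1 had 4.76, 4.62, 4.72 and 4.62 in Nuc, 5.17, 4.97 and 5.51 in Cyto, 4.32, 4.55, 4.48 and 4.36 in WT and 4.79, 5.40, 5.24 and 5.21 in KO libraries. It was lower than KO by -0.48 ± 0.13 (adjusted p = 0.00628) in Nuc and -0.73 ± 0.13 (adjusted p = 0.000269) in WT, and Cyto overlapped KO.

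Ifih1 had 2.01, 1.89, 1.76 and 1.66 in Nuc, -0.24, 0.14 and -0.084 in Cyto, 1.85, 1.78, 1.68 and 2.50 in WT and 1.22, 0.063, 1.08 and 1.57 in KO libraries. Cyto was the lowest group, with KO library 2 in its range, at -1.05 ± 0.32 (adjusted p = 0.0157) against KO, and Nuc lay above Cyto by 1.89 ± 0.32 (adjusted p = 0.00026). Nuc and WT differed from KO by 0.85 ± 0.29 (adjusted p = 0.027) and 0.97 ± 0.29 (adjusted p = 0.015). The Nuc call was lost without Nuc 1 or 2 or KO 2 (adjusted p up to 0.0933), the Cyto call without Cyto 1 (adjusted p up to 0.0577) and the WT call without WT 4 (adjusted p up to 0.058). Ifih1 was called neither between Nuc and KO nor between WT and KO in 1 mM glucose. Its means there were 1.62 in Nuc, 2.12 in WT and 1.76 in KO libraries. Only the Cyto call of Ifih1 against KO was thus made in both media. Samd9l had 5.66, 5.50, 5.66 and 5.49 in Nuc, 4.81, 5.02 and 5.00 in Cyto, 5.29, 5.26, 5.26 and 4.96 in WT and 5.69, 5.44, 5.54 and 5.47 in KO libraries, lower than KO in Cyto by -0.59 ± 0.10 (adjusted p = 0.000192) and in WT by -0.34 ± 0.092 (adjusted p = 0.00728), with KO and Nuc again overlapping.

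Gbp2 had 0.51, 1.95, 1.48 and 1.25 in Nuc, 1.66, 1.69 and 1.35 in Cyto, 0.35, -0.13, 0.10 and 0.18 in WT and -0.27, 0.90, 0.41 and 0.64 in KO libraries. All Cyto libraries lay above all WT and KO libraries, and Cyto was higher than KO by 1.14 ± 0.35 (adjusted p = 0.0154), a call lost without Cyto 1 or 2 (adjusted p up to 0.0542). Trim30a, a ligase that dampens inflammatory signalling, had 4.08, 3.82, 3.87 and 3.48 in Nuc, 3.17, 3.54 and 2.09 in Cyto, 3.34, 3.66, 4.50 and 3.69 in WT and 4.73, 4.69, 3.93 and 4.17 in KO libraries. It was opposite in sign to 1 mM glucose, with -1.45 ± 0.32 (adjusted p = 0.00164) in Cyto against KO. Ifit3b had 1.32, 2.01, 1.98 and 1.70 in Nuc, 0.76, 0.48 and 0.78 in Cyto, 1.38, 1.23, 1.33 and 1.17 in WT and -0.21, 0.30, 1.34 and 1.43 in KO libraries, and Nuc was above KO by 1.04 ± 0.32 (adjusted p = 0.0152), with 2 KO libraries near 0 and 2 in the Nuc range. Herc6 had 3.51, 2.97, 3.19 and 2.80 in Nuc, 3.76, 3.77 and 4.18 in Cyto, 2.56, 2.75, 2.82 and 2.86 in WT and 3.27, 3.73, 3.16 and 2.84 in KO libraries. Cyto was its highest group, 0.65 ± 0.21 (adjusted p = 0.0195) over KO, lost without Cyto 4 or KO 4 (adjusted p up to 0.103). Gbp7 had -1.12, -0.63, -1.79 and -1.15 in Nuc, -2.27, -2.0 and -2.08 in Cyto, 0.28, 0.31, 0.19 and -2.73 in WT and 0.95, -1.54, 0.12 and 0.099 in KO libraries, and its Cyto difference of -2.02 ± 0.72 (adjusted p = 0.0359) was lost without Cyto 1, 2 or 4 or KO 1, 3 or 4 (adjusted p up to 0.0974). Parp9 had 3.10, 3.15, 3.72 and 3.46 in Nuc, 2.99, 3.36 and 3.3 in Cyto, 4.25, 3.74, 4.13 and 3.54 in WT and 3.86, 3.81, 3.73 and 3.60 in KO libraries, lower in Cyto than in WT by -0.70 ± 0.19 (adjusted p = 0.00892), lost without Cyto 1 (adjusted p up to 0.0528).

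Whether a fold change differed between the media was tested on 11931 shared genes, as the value in 1 mM minus that in 10 mM glucose. The medium is confounded with the sequencing batch, and a batch effect that differs between constructs would stay in the difference. For Cyto against KO, 14 of 31 members had a higher fold change in 1 mM glucose and 1 a lower one (21.5% and 23.2% of all shared genes), with a median difference of 0.51 against -0.029 for all genes. Usp18 led with a difference of 3.89 ± 0.52 (adjusted p = 5.33e-07), and log2 fold changes of 2.95 in 1 mM and -0.94 in 10 mM glucose. Gbp3 followed with 2.89 ± 0.69 (adjusted p = 0.00112), Ifi44 with 2.74 ± 0.53 (adjusted p = 0.000107), Ifit1 with 2.41 ± 0.31 (adjusted p = 3.45e-07), Isg15 with 2.33 ± 0.49 (adjusted p = 0.000302), Trim30a with 2.33 ± 0.35 (adjusted p = 4.3e-06) and Irf7 with 2.29 ± 0.32 (adjusted p = 1.2e-06). Irf1 was the 1 lower member, by -0.54 ± 0.15 (adjusted p = 0.00321). For Cgas and Stat2 the difference was 0.89 ± 0.59 (adjusted p = 0.23) and 0.11 ± 0.13 (adjusted p = 0.531), and neither passed the test.

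For Nuc against KO, 9 members had a higher fold change in 1 mM glucose and 3 a lower one (17.8% and 18.7% of all shared genes). The higher ones numbered 5 without 1 mM Nuc library 1 or without 10 mM Nuc library 1 or 3. Irf7 at 2.12 ± 0.31 (adjusted p = 3.45e-06), Ifit1 at 2.10 ± 0.30 (adjusted p = 2.56e-06) and Usp18 at 1.73 ± 0.50 (adjusted p = 0.00719) led. For WT against KO the counts were 1 and 6 (13.5% and 12.7%), with Irf7 the 1 higher member at 1.11 ± 0.31 (adjusted p = 0.00802). That count was 2 without 1 mM WT library 1 or 4 or 10 mM KO library 2, WT library 4 or Nuc library 1, and 3 without 10 mM KO library 4. Quantile normalization gave 2 and 6, and adding 1 on the linear scale 2 and 5. For Nuc against Cyto, 13 members had a lower difference in 1 mM glucose and 0 a higher one (9.48% and 9.47% of all shared genes), by limma, with 14 members at an unadjusted p under 0.05. Gbp3 at -2.42 ± 0.69 (adjusted p = 0.0127), Ifit3b at -2.25 ± 0.37 (adjusted p = 4.7e-05) and Usp18 at -2.16 ± 0.52 (adjusted p = 0.00313) were the lowest.

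**Figure D5:**
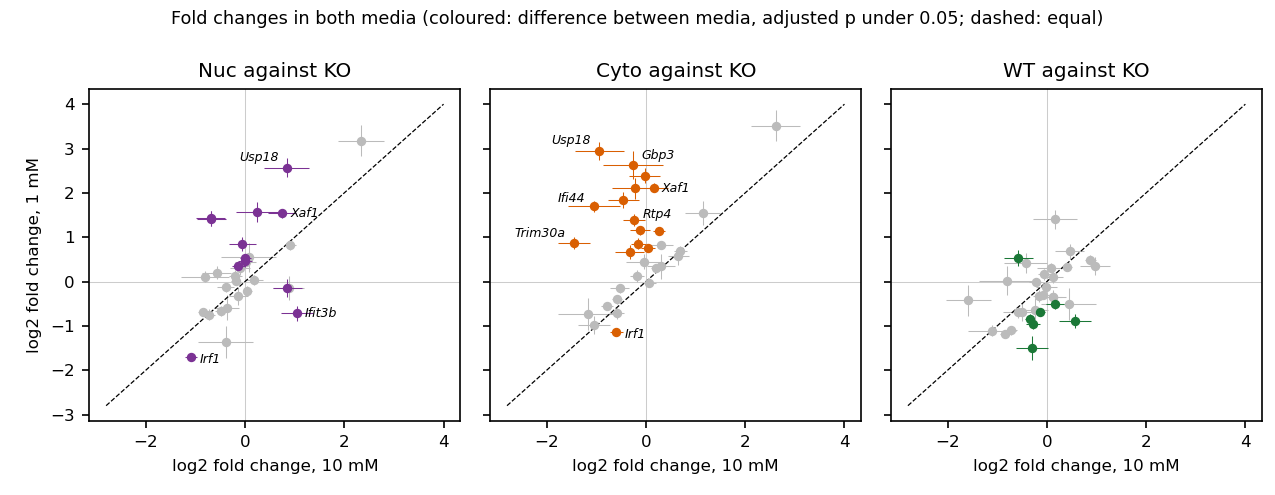
Log2 fold change of Nuc, Cyto and WT against KO in 1 mM glucose, with standard errors, plotted against that in 10 mM glucose for the 31 members measured in both media, with coloured points where the difference between media passed limma's test and a dashed line where both are equal. Usp18 lies at 2.95 in 1 mM and -0.94 in 10 mM glucose for Cyto.

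Calls in both media can be set side by side. For Cyto against KO, 4 of 31 members were called higher in both, 5 lower in both and 1 in opposite directions, while 16 were called higher in 1 mM glucose only. A call in 1 medium only does not show a difference, which the test above addresses gene by gene.

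The rest of the pathway was read from 7 lists of genes, of which some overlap. Each list is given as a count, beside the shares of all genes called in the same comparison. No interferon gene on the list was among those measured. Of the 5 receptor genes measured in 1 mM glucose, 3 were higher and 0 lower in Cyto than in KO, against 31.7% and 33% of all genes. Ifnar2, a chain of the receptor for interferon alpha and beta, was higher by 0.38 ± 0.078 (adjusted p = 0.000478) in Nuc, 0.54 ± 0.078 (adjusted p = 1.23e-05) in Cyto and 0.80 ± 0.078 (adjusted p = 2.45e-07) in WT. In 10 mM glucose the 3 values were 0.29 ± 0.082 (adjusted p = 0.00863), 0.44 ± 0.088 (adjusted p = 0.000831) and 0.79 ± 0.082 (adjusted p = 1.28e-06).

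Of 16 genes of JAK-STAT signalling, 6 were higher and 5 lower in Cyto in 1 mM glucose, which is near the 31.7% and 33% of all genes, with a list median of 0.047. Cish, an inhibitor of cytokine signalling, was lower by -1.60 ± 0.15 (adjusted p = 5.04e-08) in Cyto, and the inhibitors Pias2 and Ptpn2 were higher by 0.74 ± 0.074 (adjusted p = 1.54e-07) and 0.76 ± 0.10 (adjusted p = 5.87e-06). Of 13 genes that induce interferon, 6 were higher and 3 lower in Cyto, against the same 31.7% and 33%. Myd88, an adaptor of Toll-like receptors, was higher in all 3 constructs, by 1.10 ± 0.069 (adjusted p = 7.37e-10) in Nuc, 1.16 ± 0.069 (adjusted p = 3.19e-10) in Cyto and 1.32 ± 0.069 (adjusted p = 1.36e-10) in WT. Tank and Azi2, scaffolds of the kinase Tbk1, were higher in Cyto by 0.79 ± 0.071 (adjusted p = 4.32e-08) and 0.65 ± 0.076 (adjusted p = 9.73e-07), and the kinase Ikbke was lower by -1.11 ± 0.11 (adjusted p = 8.85e-08).

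The list on the clearance of nucleic acids and cGAMP had 9 measured genes, among them the helicase Ddx41. Of these, 2 were higher and 5 lower in Cyto (31.7% and 33% of all genes), with a list median of -0.34. Enpp1, which degrades cGAMP outside cells, was lower by -3.0 ± 0.44 (adjusted p = 1.49e-05), Dnase2a, the lysosomal DNase, by -1.07 ± 0.11 (adjusted p = 2.6e-07), and the RNase H2 subunits Rnaseh2c and Rnaseh2b by -1.08 ± 0.11 (adjusted p = 2.05e-07) and -0.77 ± 0.12 (adjusted p = 1.66e-05). In Nuc the counts were also 2 higher and 5 lower (30.5% and 29.5% of all genes), and in WT 2 and 2 (29.7% and 28.5%). Lower levels were called in 10 mM glucose for 6 of the 9 in Nuc and 2 in Cyto, against 22.7% and 18.9% of all genes. Of 9 repressors of these genes, 3 were higher and 3 lower in Cyto, each close to the share of all genes, among them Bcl6 at 0.57 ± 0.096 (adjusted p = 6.79e-05), Irf2bp1 at -0.57 ± 0.081 (adjusted p = 1.07e-05) and Foxo3 at -0.50 ± 0.09 (adjusted p = 0.000129).

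Of 50 further targets of interferon alpha and beta, 29 were higher and 10 lower in Cyto than in KO in 1 mM glucose, against 31.7% and 33% of all genes, with a list median of 0.47. Isg20, an RNA exonuclease, was higher by 2.65 ± 0.12 (adjusted p = 1.08e-11) in Cyto and 2.28 ± 0.12 (adjusted p = 8.17e-11) in Nuc, and Phf11d, Ifi203 and Trim12c by 2.73 ± 0.21 (adjusted p = 7.87e-09), 1.86 ± 0.12 (adjusted p = 7.57e-10) and 1.36 ± 0.10 (adjusted p = 5.16e-09) in Cyto. The counts were 20 higher and 17 lower in Nuc (30.5% and 29.5% of all genes), and 14 and 21 in WT (29.7% and 28.5%), where the nuclear body proteins Sp100 and Sp140 were lower by -2.88 ± 0.16 (adjusted p = 2.28e-10) and -2.38 ± 0.13 (adjusted p = 3.11e-10). In 10 mM glucose they were 7 and 17 in Nuc (22.7% of all genes each way), 8 and 11 in Cyto (19.6% and 18.9%), which is near the shares of all genes, and 8 and 14 in WT (20.6% and 20.2%). The fold change of Cyto against KO was higher in 1 mM glucose for 18 of the 50 and lower for 6, against 21.5% and 23.2% of the shared genes.

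The GTPases induced by interferon gamma did not move as one. Against KO in 1 mM glucose, 2 of 10 were higher and 5 lower in Nuc (30.5% and 29.5% of all genes), 5 and 2 in Cyto (31.7% and 33%), and 0 and 7 in WT (29.7% and 28.5%). Gbp6, Irgm2 and Igtp were higher in Cyto by 1.98 ± 0.14 (adjusted p = 2.99e-09), 1.46 ± 0.14 (adjusted p = 1.12e-07) and 1.06 ± 0.14 (adjusted p = 4.52e-06). Tgtp2, a GTPase of the same family, was lower in all 3 constructs, by -5.14 ± 0.19 (adjusted p = 2.07e-12) in Nuc, -3.47 ± 0.19 (adjusted p = 1.42e-10) in Cyto and -3.73 ± 0.19 (adjusted p = 1.22e-10) in WT.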

How the data were processed

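RNA was measured by bulk sequencing in 31 libraries, 16 in 1 mM and 15 in 10 mM glucose. The authors deposited 1 table per medium of gene-level log2 values, close to log2 CPM (read counts made relative to library totals) with a small offset, normalized separately. Kallisto, edgeR, limma and GRCm39 are named per the submitters' processing notes, without versions. The lowest value was -3.59 in 1 mM and -3.29 in 10 mM glucose, and Cgas in WT library 1 held it in both. Whether the libraries of a medium share a floor was not tested. Linear sums ran from 933382 to 1097740, and the depth is unknown, so no counting intervals are given. The 1 entry without a symbol in each table was left out.

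The 4 constructs of a medium entered 1 fit of group means in limma 3.58.1 (R 4.3.3) whose prior variance followed the mean level. A gene was called at an adjusted p under 0.05, by Benjamini-Hochberg over the whole table, and ± marks the standard error that limma gives. No value was filtered or transformed. The fit was tested on simulated data. Differences between media were contrasts in 1 fit of the 11931 shared genes.

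The members and lists were chosen with earlier results of these data known. Levels per library are given for Irf7, Irf9, Stat2, Usp18, Isg15, Ifit1 and Mx1 and for the 3 highest and 3 lowest called members of a comparison. Pathway lists are given by counts and up to 4 called genes with the smallest adjusted p, of which 1 is not reported here. Other single values, the levels of Eif2ak2 and 5 of the 6 promoters were chosen after values were seen. Promoters were read from RefSeq windows on GRCm38.p6, and shared 31-base words from GENCODE transcripts of that build, both with Python 3.11.15. Alternatives were no trend, quantile normalization, equal library medians, genes with a mean log2 value of at least 0 only, 1 added on the linear scale, the replicate number as a block, and leaving out each library in turn. Leaving out all 10 mM libraries numbered 4 was added after seeing the data.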

Additional observations from a re-analysis of the deposited data

Results flagged for a closer look

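The fold change of a member differed between media in 47 of the tests, by limma's contrast of 1 mM minus 10 mM glucose with Benjamini-Hochberg adjustment over the shared genes. Each comparison tested 31 members. Of all shared genes, 21.5% were called higher and 23.2% lower for Cyto against KO, and 17.8% and 18.7% for Nuc against KO. The shares were 13.5% and 12.7% for WT against KO, and 9.47% and 9.48% for Nuc against Cyto. Medium and sequencing batch cannot be told apart. For Cyto against KO the difference in log2 fold change was positive for Usp18 (3.89), Gbp3 (2.89), Ifi44 (2.74), Ifit1 (2.41), Isg15 (2.33), Trim30a (2.33), Irf7 (2.29), Xaf1 (1.97), Rtp4 (1.63), Ifit3 (1.27), Ifi35 (1.01), Dhx58 (1.00), Irf9 (0.87) and Adar (0.72), and negative for Irf1 (-0.54). For Nuc against KO it was positive for Irf7 (2.12), Ifit1 (2.10), Usp18 (1.73), Isg15 (1.32), Dhx58 (0.91), Xaf1 (0.80), Irf9 (0.51), Adar (0.48) and Ifi35 (0.47), and negative for Ifit3b (-1.75), Ifih1 (-0.99) and Irf1 (-0.61). For WT against KO it was positive for Irf7 (1.11), and negative for Ifit3b (-1.45), Gbp2 (-1.20), Parp9 (-0.68), Dtx3l (-0.67), Stat2 (-0.55) and Samd9l (-0.51). Nuc against Cyto had negative differences for Gbp3 (-2.42), Ifit3b (-2.25), Usp18 (-2.16), Ifi44 (-1.82), Trim30a (-1.55), Gbp2 (-1.43), Ifit3 (-1.43), Rtp4 (-1.23), Xaf1 (-1.17), Ifih1 (-1.06), Ifi35 (-0.54), Samd9l (-0.45) and Irf9 (-0.36). A call was lost on leaving out at least 1 library for Dhx58 in Cyto against KO, Adar, Dhx58, Ifi35, Ifih1, Isg15 and Xaf1 in Nuc against KO, Gbp2 in WT against KO, Gbp2, Ifi35, Ifi44, Ifih1, Irf9 and Samd9l in Nuc against Cyto.

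In 15 of 240 groups of 4 libraries (6.25%), 1 library lay apart from the other 3 by Dixon's criterion, and chance gives about 1 in 20. In 1 mM glucose, Cyto library 1 stood apart for Dtx3l (3.27, against 3.53 to 3.55 in the others). The same held in Cyto library 2 for Dhx58 (2.06, against 2.69 to 2.80 in the others). Cyto library 3 stood apart there for Cmpk2 (1.28, against -0.54 to -0.28 in the others). The same held in WT library 2 for Irf9 (5.21, against 4.98 to 5.01 in the others), Samd9l (4.49, against 4.83 to 4.89 in the others), Herc6 (1.09, against 1.78 to 1.88 in the others) and Eif2ak2 (5.46, against 6.14 to 6.29 in the others). KO library 1 stood apart there for Parp14 (1.26, against 0.31 to 0.47 in the others). The same held in KO library 2 for Ifit3b (3.26, against 2.89 to 2.91 in the others) and Rigi (5.45, against 5.20 to 5.24 in the others). In 10 mM glucose, WT library 4 stood apart for Irf9 (4.05, against 4.22 to 4.25 in the others), Gbp7 (-2.73, against 0.19 to 0.31 in the others), Samd9l (4.96, against 5.26 to 5.29 in the others) and Eif2ak2 (5.93, against 6.17 to 6.19 in the others). The same held in KO library 1 for Ifit2 (4.80, against 5.07 to 5.12 in the others). WT library 2 in 1 mM glucose is the library that stood apart over all genes of that medium. In 10 mM glucose KO library 1 had the largest residual SD, 0.398. These values are given without an explanation.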

How the results depend on the processing

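The 25 members higher and 6 lower in Cyto than in KO in 1 mM glucose stayed at 23 to 25 and 5 to 7 when each library was left out in turn, and the 14 with a higher fold change in 1 mM glucose at 13 to 15. Quantile normalization moved 5 counts, to 11 higher in WT than in KO and 4 lower in Nuc than in WT in 1 mM glucose, 3 lower in WT than in KO and 3 higher in Nuc than in Cyto in 10 mM glucose, and 2 members with a higher WT fold change in 1 mM glucose, which adding 1 on the linear scale also gave. Without all 10 mM libraries numbered 4, an alternative chosen after seeing the data, Nuc had 3 members higher and 2 lower than Cyto in 10 mM glucose. The 6 higher and 4 lower in Nuc than in KO there became 5 and 6. The 5 higher and 4 lower in Cyto than in WT became 4 and 6, so both splits turned. With the same libraries left out, 3 members had a higher WT fold change in 1 mM glucose. Leaving out 1 library gave ranges of 1 to 2 lower in Cyto than in WT in 1 mM glucose. In 10 mM glucose the ranges were 2 to 5 lower in Nuc than in WT, 3 to 5 higher and 2 to 5 lower in Nuc than in Cyto, 2 to 5 lower in Cyto than in WT, and 3 to 6 higher in Nuc than in KO. For the differences between media they were 1 to 3 higher for WT and 5 to 10 higher for Nuc, both against KO. Values of 4 uncalled genes changed sign. Ifit1 in Cyto against KO in 10 mM glucose (-0.024) was 0.18 with quantile normalization, 0.021 with the replicate block and -0.15 to 0.13 on leaving out 1 library (above 0 without KO library 1 or 3 or Cyto library 1). Isg15 in the same comparison (-0.23) ran from -0.56 to 0.18 (above 0 without Cyto library 2). With quantile normalization Cgas in WT against KO in 1 mM glucose (-0.42) was 0.30, and the media difference of Stat2 in Cyto against KO was -0.0099. The cause of these shifts was not tested. The labels do not tie same-numbered libraries to a shared source. Their deviations had correlations over 0.1 in 2 of 24 pairs in 1 mM and 5 of 21 in 10 mM glucose, so the numbers were not taken as pairs, although a library correlated best with its own number for 10 of 15 in 10 mM (3 of 16 in 1 mM), a hint from the data of shared deviation there. The replicate number as a block moved no count by over 1.5 times. It ended the calls of Cmpk2 (Nuc against Cyto) and Irf9 (Nuc against WT) in 1 mM glucose, Herc6 (WT against KO) and Parp9 (Cyto against KO) in 10 mM glucose, and Irf9 and Samd9l (Nuc against Cyto) between media. Unknown depth and low levels limit the members below the median gene, 28 of 36 in 1 mM and 27 of 32 in 10 mM glucose.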
